A study of Mus musculus with 40 samples.

Results

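The testis and somatic forms of 10 energy metabolism genes were followed in single mouse spermatocytes: the testis forms Ldhc, Pgk2, Gapdhs, Pdha2 and Cyct, the widely expressed forms Ldha, Ldhb, Gapdh and Cycs, and Hk1. They were chosen by symbol, and all 10 had a row among the 55492 genes of the deposited table. The X-linked partners Pgk1 and Pdha1 were read beside Pgk2 and Pdha2. The study made 40 single-cell libraries, 20 labelled Pachytene and 20 labelled Metaphase I, and each is called a cell here, although the counts cannot show that it holds RNA of 1 cell only.

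All cells came from the testes of C57BL/6J mice aged 6 to 8 weeks, and spermatocytes were enriched by centrifugal elutriation, which separates cells by size. The Metaphase I group stands for cells driven out of pachytene in culture with 4 µM okadaic acid, an inhibitor of serine/threonine protein phosphatases, for 5 h. Every library carries this same protocol text, so the group was taken from the library name, and the sources used here do not give whether Pachytene cells were also cultured. Stage, drug and culture time cannot be told apart in this contrast. No animal or culture is named for any cell, so each group was treated as 1 sample, no test was made, and intervals (95%) cover counting error only. Values are CPM, the counts of a gene per 1000000 counts of that cell, over totals of 165048 to 2325564 in Pachytene (median 730979) and 198117 to 1497037 in Metaphase I.

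Male germ cells replace several enzymes of sugar use with forms made from separate genes. Some of these genes, such as Pgk2 and Pdha2, are intronless copies of X-linked genes, and the X chromosome is silenced in pachytene by meiotic sex chromosome inactivation. Lactate supplied by Sertoli cells is a main fuel of spermatocytes, and lactate dehydrogenase turns it into pyruvate for the mitochondria. Glycolysis by testis forms such as Gapdhs is known chiefly for powering the sperm tail.

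Spermatocyte markers were present in both groups, but the list did not separate the 2 stage labels: the median of Sycp3, of the synaptonemal complex, was 138 CPM in Pachytene and 136 CPM in Metaphase I, and that of Ccnb1 was 170 and 245 CPM with overlapping ranges. Aurka had medians of 268 and 453 CPM and Ccna1 of 253 and 367 CPM, again with overlapping ranges. The medians of Sycp1, Sycp3, Tex101 and Piwil1 were lower in Metaphase I, and those of the other markers with counts were higher. Counts were found for 14 of 15 spermatocyte markers in both groups, with Nek2 at 0, and their summed level was 1420 to 4726 CPM per Pachytene cell and 1260 to 8345 CPM per Metaphase I cell. Sertoli markers summed to 19077 CPM in Metaphase I replicate 19, 10454 CPM of it Clu, and to at most 280 CPM in any other library. Of the 13 Sertoli markers 10 had counts in Metaphase I, with Rhox5, Inhba and Gata4 at 0. Replicate 19 was also highest in spermatogonia markers, at 412 CPM (408 CPM of it Uchl1) against at most 57.1 CPM elsewhere. The same held for Leydig, peritubular, endothelial and blood markers, at 226 CPM (162 CPM of it Star) against at most 47.6 CPM. Spermatid markers had a median of 106 CPM in Pachytene and 60.7 CPM in Metaphase I, but reached 5876 to 6803 CPM in Pachytene replicates 2, 3, 7 and 19, and 5708 CPM in Metaphase I replicate 3. In 8 libraries X-linked genes held over 0.3% of counts, namely these 5 and Metaphase I replicates 7, 17 and 19. Results that rest on these libraries are given with and without them, and the part of other cell types' RNA was not tested.

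The DNA just before the start sites is printed for 4 testis genes whose levels the results turn on and for 2 somatic partners. The stretches of partners were not aligned, so how alike they are was not measured. The stretches are from RefSeq on GRCm38.p6, 5′ to 3′ on the gene's strand, and end before the first exon base of the deposited table. Capitals mark GGGCGG (GC box), TGACGTCA and its core TGACG (cAMP response element), and CCAAT, each searched on both strands, and TATAAA, searched on the gene's strand. TGACG is part of TGACGTCA, so these matches overlap.
Ldhc: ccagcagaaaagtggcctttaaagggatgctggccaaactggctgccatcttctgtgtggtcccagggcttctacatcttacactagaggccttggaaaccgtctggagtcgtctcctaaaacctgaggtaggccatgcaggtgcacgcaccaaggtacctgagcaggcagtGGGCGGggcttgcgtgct
Pgk2: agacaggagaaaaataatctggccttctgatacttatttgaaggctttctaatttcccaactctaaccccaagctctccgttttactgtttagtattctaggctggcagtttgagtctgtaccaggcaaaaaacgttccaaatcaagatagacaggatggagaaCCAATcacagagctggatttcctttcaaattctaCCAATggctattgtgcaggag
Pgk1: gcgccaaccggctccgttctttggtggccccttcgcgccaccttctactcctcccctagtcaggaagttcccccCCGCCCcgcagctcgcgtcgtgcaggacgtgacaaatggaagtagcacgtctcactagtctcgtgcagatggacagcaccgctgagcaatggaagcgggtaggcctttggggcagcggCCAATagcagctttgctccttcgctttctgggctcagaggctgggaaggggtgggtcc
Cyct: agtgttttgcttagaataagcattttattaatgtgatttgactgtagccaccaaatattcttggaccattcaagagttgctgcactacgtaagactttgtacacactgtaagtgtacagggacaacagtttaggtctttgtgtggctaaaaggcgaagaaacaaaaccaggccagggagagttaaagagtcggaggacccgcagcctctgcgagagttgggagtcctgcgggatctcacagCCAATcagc
Cycs: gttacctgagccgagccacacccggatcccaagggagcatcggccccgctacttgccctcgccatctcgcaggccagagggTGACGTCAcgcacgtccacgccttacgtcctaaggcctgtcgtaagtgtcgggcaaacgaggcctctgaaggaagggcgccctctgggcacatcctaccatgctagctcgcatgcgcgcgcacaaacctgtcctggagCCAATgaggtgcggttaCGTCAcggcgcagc
Pdha2: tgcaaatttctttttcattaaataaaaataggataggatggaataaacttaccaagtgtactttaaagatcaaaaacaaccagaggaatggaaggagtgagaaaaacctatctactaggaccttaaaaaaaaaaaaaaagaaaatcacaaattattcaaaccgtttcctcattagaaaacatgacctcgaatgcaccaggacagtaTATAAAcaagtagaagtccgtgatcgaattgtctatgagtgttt

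These stretches lie at chr7:46861013-46861202 (Ldhc, plus strand), chr17:40208641-40208859 (Pgk2, minus strand), chrX:106186850-106187099 (Pgk1, plus strand), chr2:76360454-76360703 (Cyct, minus strand), chr6:50566570-50566819 (Cycs, minus strand) and chr3:141212356-141212605 (Pdha2, minus strand). Over the full 250 bases before the start, CG pairs numbered 3 for Pgk2, 4 for Pdha2 and 6 for Cyct. They numbered 17 for Pgk1, 15 for Pdha1 and 23 for Cycs. The median over 32851 RefSeq windows of the same length was 6, with quartiles of 2 and 16, so each of these 3 testis genes was at or under the median. Pgk1 and Cycs were above the upper quartile, and Pdha1 was just under it. Ldhb with 14 CG pairs and Gapdh with 8 were also between the median and the upper quartile. The windows of Gapdhs had 1 and 0 CG pairs, and those of Hk1 had 1 and 14. The 2 windows of Ldhc had 8 CG pairs, in the one printed in part above, and 3, and the 2 windows of its neighbour Ldha had 25 and 9. CCAAT stood in the windows of Pgk2, Pgk1, Cyct, Cycs and Ldhb, and in 33.8% of all windows. TGACGTCA stood in those of Cycs and Ldha, and in 1.55% of all windows, and TATAAA in that of Pdha2, and in 7.59%. GGGCGG stood in those of Ldhc, Ldha and Pgk1 and in 32.7% of all windows, and TGACG in those of Ldhc, past the printed stretch, Ldha and Cycs and in 17.8%. The matches are letters in a window and nothing was read from them about any factor.

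Ldhc, the lactate dehydrogenase subunit of germ cells, was among the most abundant transcripts of these cells. It held 1.75% of all Pachytene counts, rank 1 among all genes, and 1.69% of Metaphase I counts, rank 2. Its lowest Pachytene cell had 12021 CPM (replicate 5), the median was 17768 CPM and the highest 22367 CPM (replicate 13). In Metaphase I the lowest was 5453 CPM (replicate 18), the median 18410 CPM and the highest 20682 CPM (replicate 12). The groups overlapped, but Metaphase I replicates 18 and 19, with 5453 and 8295 CPM, lay below every Pachytene cell. The middle of each group was narrow, with quartiles of 15982 and 18740 CPM in Pachytene and 15355 and 19007 CPM in Metaphase I.

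Ldha, the subunit that dominates in muscle and other glycolytic tissue, was present in all 40 cells at a lower level. It ran from 544 CPM (replicate 7) through a median of 984 CPM to 1206 CPM (replicate 5) in Pachytene. It ran from 330 CPM (replicate 18) through 1012 CPM to 1256 CPM (replicate 14) in Metaphase I. The cell with the least Ldhc in Metaphase I was thus also the cell with the least Ldha, whereas the Pachytene cell with the least Ldhc had the most Ldha. Ldhc counts exceeded Ldha counts in 20 of 20 cells of each group. The count ratio was 9.97 to 25.4 in Pachytene (median 18.7) and 13.4 to 26.8 in Metaphase I (median 18.2). Per kilobase of exon, which corrects for the longer Ldha gene model, the ratio of the summed levels was 40.3 and 36.2. Both scales are given because the libraries are enriched for 3′ ends, where counts do not grow with length, and both put Ldhc first.

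The pair lies side by side on chromosome 7 (GRCm38), with Ldha at 46841475 to 46855627 and Ldhc at 46861203 to 46878142, both on the plus strand and 5575 bases apart. Their annotated transcripts share no stretch of 25 bases, so a read of that length from one has no exact match in the other. The 4 annotated copies named after Ldha or Ldhb held 4 counts in all.

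Ldhb, the subunit typical of heart, was near absent outside 1 library. The Pachytene cells held 1 count in all. The Metaphase I cells held 79 counts in 6 cells, of which replicate 19 had 74 (93.7%) and a level of 105 CPM. That is the library with 19077 CPM of Sertoli markers. Even there Ldhc counts were 78.9 times the Ldhb counts.

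**Figure D1:**
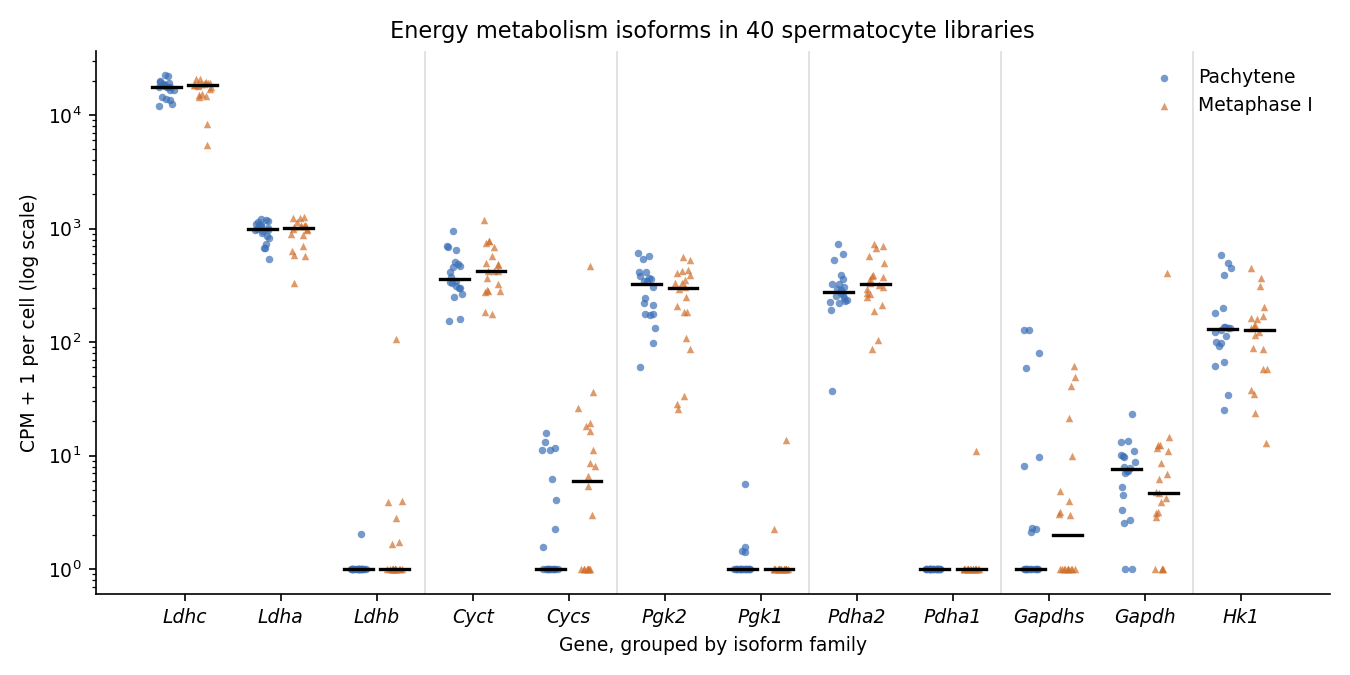
Levels of the 10 genes and of the X-linked partners Pgk1 and Pdha1 in each of the 40 cells, as CPM + 1 on a log axis. Points are single cells by group and bars are medians. Ldhc stands apart with medians of 17768 and 18410 CPM, and the somatic forms Ldhb, Gapdh and Cycs are at or near 0 in most cells.

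Pgk2, the testis phosphoglycerate kinase, a glycolytic enzyme that makes ATP, was counted in all 40 cells and varied widely. In Pachytene it ran from 58.8 CPM (replicate 16) through a median of 324 CPM to 614 CPM (replicate 3). In Metaphase I it ran from 24.7 CPM (replicate 13) through 298 CPM to 565 CPM (replicate 3). The groups overlapped, and the lowest cells of either group were several-fold under their median.

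Pgk1, its X-linked partner, had 6 counts in 4 Pachytene cells and 10 counts in 2 Metaphase I cells, 9 of the 10 in replicate 19. Pgk2 counts exceeded Pgk1 counts in all 40 cells, with 5730 against 6 in Pachytene and 3286 against 10 in Metaphase I. In replicate 19 Pgk2 had 146 counts, which was 16.2 times Pgk1. Of the 8 libraries with more X-linked counts, 6 had no Pgk1 count, so the higher X-linked share did not come with Pgk1 in most of them.

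Pdha2, the testis form of the pyruvate dehydrogenase E1 alpha subunit, which feeds pyruvate into the citric acid cycle, was also counted in every cell. In Pachytene it ran from 36.4 CPM (replicate 5) through a median of 278 CPM to 729 CPM (replicate 16). In Metaphase I it ran from 86.6 CPM (replicate 19) through 324 CPM to 729 CPM (replicate 13). The X-linked Pdha1 had 0 counts in Pachytene, where 3 counts over the group would be 0.170 CPM, and 7 counts in Metaphase I, all in replicate 19. There Pdha2 had 61 counts, 8.71 times Pdha1. The testis form thus led in 20 of 20 cells of each group for both X-linked pairs, and the cell with the least Pdha2 in Metaphase I was the only one of the 40 with Pdha1 counts.

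Pgk2 lies at chromosome 17, 40207015 to 40208640, and Pdha2 at chromosome 3, 141210004 to 141212355, both as a single exon on the minus strand. Their transcripts share no stretch of 25 bases with those of Pgk1 or Pdha1. The 3 annotated copies named after Pgk1 held 0 counts.

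Cyct, the testis cytochrome c, an electron carrier of the respiratory chain, was present in all 40 cells. In Pachytene it ran from 154 CPM (replicate 19) through a median of 360 CPM to 950 CPM (replicate 16). In Metaphase I it ran from 176 CPM (replicate 19) through 425 CPM to 1199 CPM (replicate 13). The cells with the most Cyct, replicate 16 of Pachytene and replicate 13 of Metaphase I, were those with the least Pgk2 of their group and the most Pdha2.

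Cycs, the somatic cytochrome c, was found in 9 Pachytene cells, with 14.8 CPM at most, and in 12 Metaphase I cells. Its Metaphase I median was 5.01 CPM and its highest level 469 CPM in replicate 19, which held 74.7% of the group's 442 counts. Cyct counts exceeded Cycs counts in 20 of 20 Pachytene cells and 19 of 20 Metaphase I cells. The exception was replicate 19, with 124 counts of Cyct and 330 of Cycs, and per kilobase Cyct led there too. Replicate 19 is the library with the Sertoli markers. In the summed counts Cyct made up 99.2% of the pair in Pachytene (95% Clopper-Pearson interval 99.0 to 99.4) and 94.6% in Metaphase I (94.1 to 95.1), or 98.6% without replicate 19 (98.3 to 98.8).

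**Figure D2:**
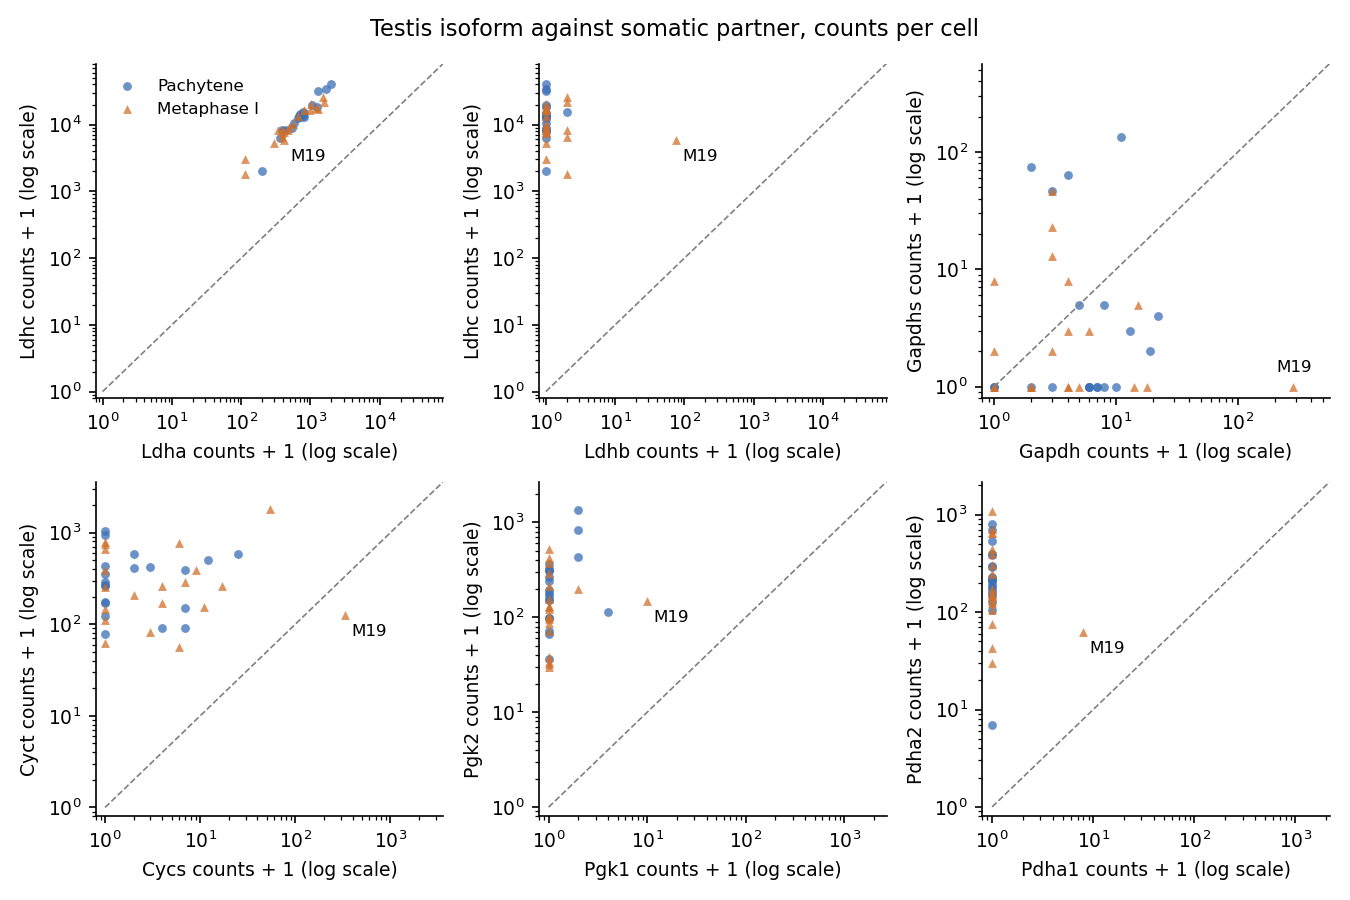
Counts of each testis form against its somatic partner in every cell, on log axes with 1 added, and the line of equal counts. Points are single cells by group, and M19 marks Metaphase I replicate 19. Cells lie above the line, on the testis side, for the Ldhc, Pgk2 and Pdha2 pairs, replicate 19 alone crosses it for Cyct, and the Gapdhs pair lies on both sides.

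Gapdhs, the glyceraldehyde-3-phosphate dehydrogenase of the sperm tail, did not lead its partner in most cells. It had counts in 9 Pachytene cells and 10 Metaphase I cells. Its Pachytene median was 0 CPM and its highest level 127 CPM (replicate 3), and its Metaphase I median was 1.01 CPM and its highest 60.6 CPM (replicate 7). Gapdh, the form of most tissues and a common reference gene, was low but more widely found, in 18 Pachytene cells (median 6.58 CPM, highest 22.3 CPM in replicate 20) and 16 Metaphase I cells (median 3.73 CPM, highest 402 CPM in replicate 19). Gapdhs had more counts than Gapdh in 4 of 20 Pachytene cells, replicates 2, 3, 7 and 19, and in 6 of 20 Metaphase I cells. Gapdh had more in 13 and 12 cells, and the remaining 3 and 2 were equal. Per kilobase Gapdhs led in 6 and 9 cells.

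The summed counts gave another order than the cells did. Gapdhs made up 72.7% of the pair in Pachytene (95% Clopper-Pearson interval 68.3 to 76.7), although Gapdh led in most cells. It made up 22.3% in Metaphase I (18.6 to 26.4), and 57.9% without replicate 19, which held 79.1% of the Gapdh counts of its group. Of 433 Gapdhs counts in all, 395 (91.2%) lay in 7 libraries.

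These 7 were also high in spermatid markers. Pachytene replicates 3, 19, 2 and 7 had 127, 126, 78.4 and 57.6 CPM of Gapdhs beside 5876, 6803, 6533 and 6400 CPM of spermatid markers. Metaphase I replicates 7, 3 and 17 had 60.6, 48.4 and 40.3 CPM of Gapdhs beside 2034, 5708 and 1425 CPM of those markers. The next library, Metaphase I replicate 16, had 20.5 CPM beside 716 CPM, and Pachytene replicate 5 had no Gapdhs count beside 1412 CPM. The 7 are 7 of the 8 libraries with over 0.3% X-linked counts, the eighth being replicate 19, and without all 8 the Gapdhs counts left were 14 (Pachytene) and 24 (Metaphase I), and it led Gapdh in 0 of 16 and 3 of 16 cells.

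**Figure D3:**
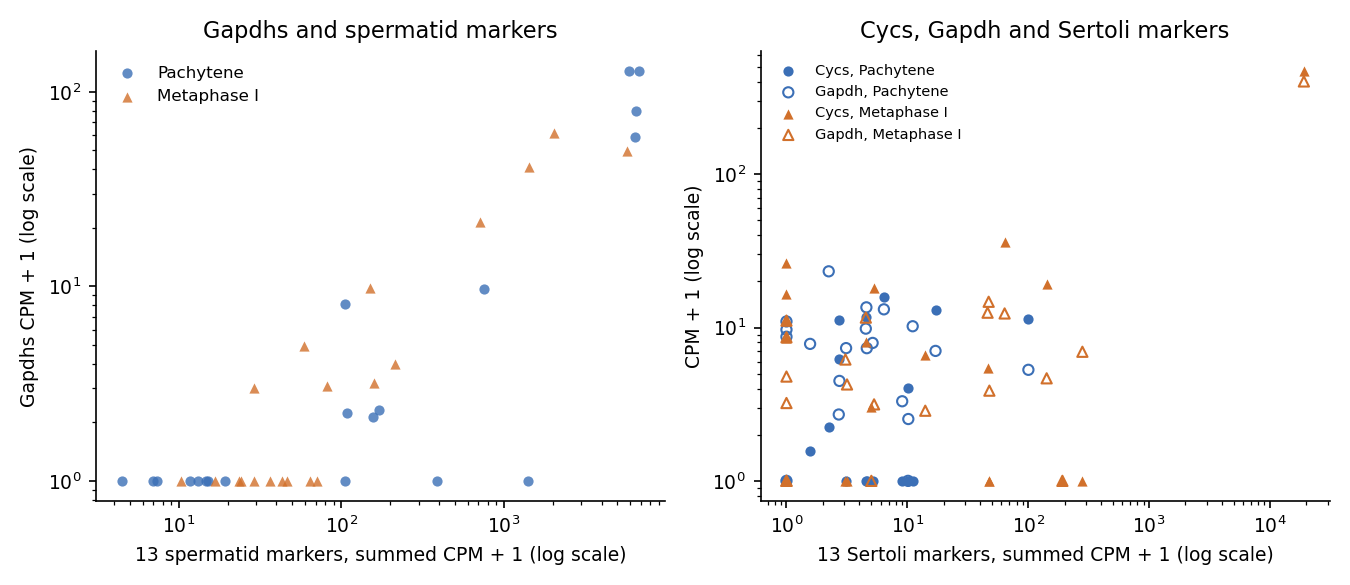
The left panel plots Gapdhs against the summed spermatid markers and the right panel Cycs (filled) and Gapdh (open) against the summed Sertoli markers, as CPM + 1 per cell on log axes, coloured by group. The libraries with the most Gapdhs lie at the right of the first panel, and Metaphase I replicate 19 lies alone at the top right of the second.

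Gapdhs lies at chromosome 7, 30729775 to 30743681, minus strand, and shares 401 exon bases with Tmem147os on the opposite strand, which held 55 Pachytene and 22 Metaphase I counts. Gapdh lies at chromosome 6, 125161715 to 125166467, minus strand, and shares 452 exon bases with Iffo1, which had 1457 and 1335 counts. The sources used here give no strand setting, so counts from these overlaps cannot be assigned for certain. The 3 annotated copies named after Gapdh held 0 counts.

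Hk1, the hexokinase that takes glucose into glycolysis and has its own transcript forms in germ cells, was counted in all 40 cells. In Pachytene it ran from 24.2 CPM (replicate 5) through a median of 128 CPM to 589 CPM (replicate 2). In Metaphase I it ran from 11.9 CPM (replicate 18) through 127 CPM to 449 CPM (replicate 3). The 7 libraries with the most Gapdhs were also the 7 with the most Hk1, at 313 to 589 CPM, and the next had 202 CPM. Their spermatid marker levels stand above. Hk1 covers chromosome 10, 62268855 to 62379908, minus strand, in 20 annotated transcripts, which gene counts cannot tell apart, and it shares 157 exon bases with Hk1os on the other strand.

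Ordered by summed CPM per kilobase in Pachytene, Ldhc led with 11053, followed by Cyct with 637, Ldha with 274, Pgk2 with 199.5 and Pdha2 with 134. Hk1 had 22.9 CPM per kilobase, Gapdhs 11.6, Gapdh 1.70, Cycs 0.998 and Ldhb 0.0361. In Metaphase I the order was Ldhc 10677, Cyct 862, Ldha 295, Pdha2 180.2, Pgk2 147, Hk1 14.98, Cycs 9.47, Gapdh 6.32, Gapdhs 4.67 and Ldhb 3.67 CPM per kilobase. The range of Ldhc over cells did not overlap that of Cyct, and Cyct was above Ldha per kilobase in 20 of 20 cells of each group. Below that, neighbours overlapped. Ldha was above Pgk2 in 16 of 20 Pachytene cells, and Pgk2 above Pdha2 in 13 of 20. Gapdh was above Gapdhs in 12 of 20 Pachytene cells and by median (1.59 against 0 CPM per kilobase), against the order of the sums. In Metaphase I Ldha was above Pdha2 in 19 of 20 cells, and Pgk2 was above Pdha2 in 12 of 20 cells and by median (183 against 138 CPM per kilobase), against the order of the sums. The lower end of the Metaphase I order rested on replicate 19: without it Gapdhs had 4.92 CPM per kilobase, Cycs 2.53, Gapdh 1.40 and Ldhb 0.245.

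The abundant members did not all vary together but lay on opposite sides. Pgk2 and Hk1 were high in the same cells, with a Spearman correlation of 0.84 over the 40 cells, 0.72 over Pachytene, 0.91 over Metaphase I, and 0.71 over the 32 libraries left without those of high X-linked share. Cyct was low where these were high. Its correlation with Pgk2 was -0.67 over the 40 cells, -0.78 in Pachytene, -0.61 in Metaphase I and -0.60 over the 32 libraries. With Hk1 it was -0.66, -0.85, -0.51 and -0.57 over the same sets. Cyct went with Pdha2 at 0.53 and with Ldha at 0.62 over the 40 cells, and at 0.60 and 0.31 over the 32 libraries. Each point is 1 library, so its members share depth and the CPM total, and the values are descriptions of these cells.

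Counts of Cyct per count of Pgk2 show the size of this spread without the library total. The ratio ran from 0.283 in Pachytene replicate 19 to 48.5 in Metaphase I replicate 13, a 171-fold range, with a median of 1.18. Over the 32 libraries it ran from 0.729 (Pachytene replicate 1) to 48.5. Of the other mixed pairs, Pdha2 per Hk1 ran from 0.459 (Pachytene replicate 2) to 31.0 (Metaphase I replicate 14), a 67.7-fold range. Pdha2 per Pgk2 had a 172-fold range. Pairs that went together also spread widely over the 40 cells. Pgk2 per Hk1 ran from 0.484 to 8.75, an 18.1-fold range, and Cyct per Pdha2 from 0.391 to 12.8, a 32.8-fold range. Only Ldha per Ldhc was narrow among the pairs looked at, within 0.0373 to 0.100, a 2.69-fold range.

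The cells with little Pgk2 and much Cyct came from both groups. Metaphase I replicate 13 had 24.7 CPM of Pgk2 and 1199 CPM of Cyct, replicate 15 had 27.4 and 687 CPM, and replicate 14 had 32.4 and 781 CPM. Pachytene replicate 16 had 58.8 CPM of Pgk2 and 950 CPM of Cyct. Of the 5 libraries lowest in Pgk2, 3 were among the 5 highest in Cyct. Metaphase I replicate 18, also among these 5 lowest, went the other way, with 86.3 CPM of Pgk2 and only 184 CPM of Cyct.

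**Figure D4:**
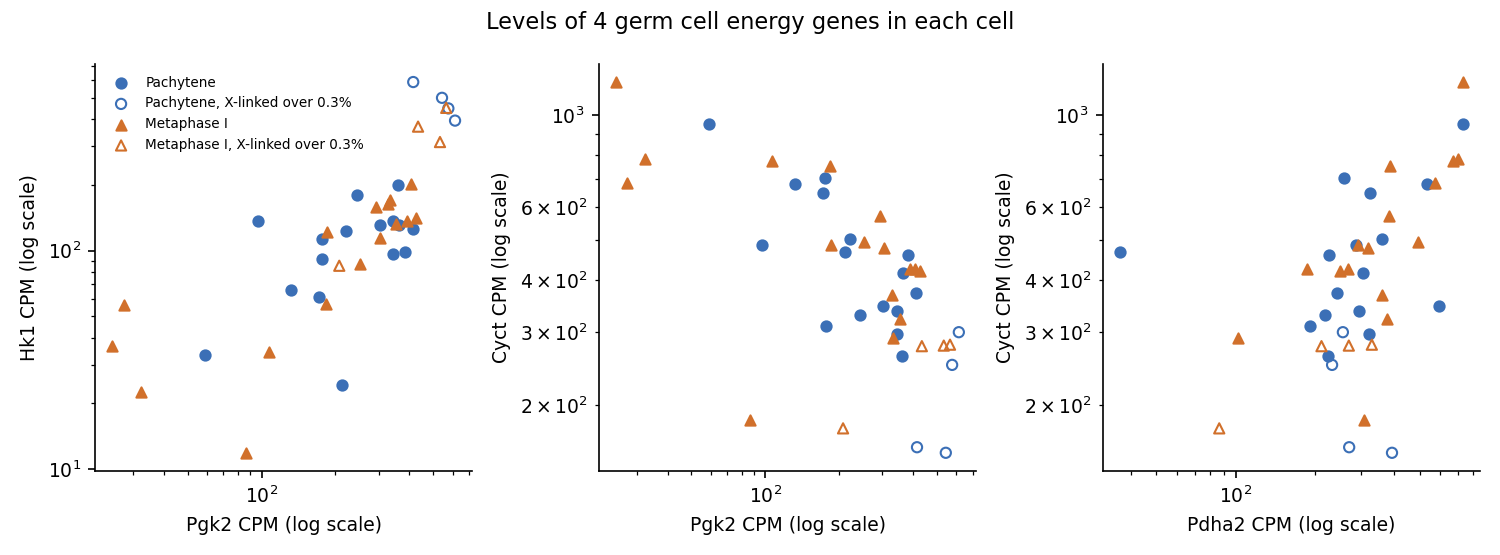
Hk1 against Pgk2, Cyct against Pgk2 and Cyct against Pdha2 in CPM per cell on log axes, coloured by group, with open symbols for the 8 libraries with over 0.3% X-linked counts. In the middle panel cells of both groups run from high Pgk2 with low Cyct to low Pgk2 with high Cyct, a correlation of -0.67 over 40 cells.

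Of the 14 spermatocyte markers with counts, 10 had a negative and 4 a positive Spearman correlation with Pgk2 over the 40 cells, and each had the opposite sign with Cyct. Over the 32 libraries 9 were negative and 5 positive with Pgk2, again each with the opposite sign for Cyct. There Pgk2 had correlations of 0.85 with Aurka (a kinase of the spindle), 0.84 with Ccnb1 (cyclin B1, which drives entry into division) and 0.83 with Ccna1 (the germ cell cyclin A). It had -0.81 with Piwil1, a partner of pachytene piRNAs, -0.80 with Sycp2, a protein of the synaptonemal complex, and -0.80 with Tex101, a surface protein of germ cells. Over all 40 cells these were 0.23, 0.73, 0.66, -0.85, -0.80 and -0.77. With Cyct the same 6 markers had -0.62, -0.66, -0.63, 0.56, 0.53 and 0.73 over the 32 libraries. The remaining 8 lay between -0.76 (Sycp1) and 0.29 (Spag6) for Pgk2. These markers were picked for their size after their values were seen.

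Among 7933 genes with enough counts, those whose level over the 40 cells was most like Pgk2 were Phyhipl (0.91), Tekt4 (0.89) and Gtsf2 (0.89). For Gapdhs they were Spata9, Spag4 and Odf3l1, each at 0.85. For Cyct they were Psma8 (0.94), an alpha subunit of the spermatocyte proteasome, Calm2 (0.87) and Pbx4 (0.87). Ldhc was most like Ccdc134 (0.82), Erlin1 (0.81) and Ndufaf3 (0.78), Ldha like Mrpl45 (0.77), Dctn2 (0.77) and Cyb5r3 (0.75), and Pdha2 like Armt1 (0.76), Tm2d3 (0.71) and Ccnh (0.69). The low members had lower values, with Tax1bp1 (0.69), Ppp6r2 (0.69) and Kti12 (0.67) for Cycs and Atp5g2 (0.61), Luc7l3 (0.60) and Cstf3 (0.58) for Gapdh. Over the 32 libraries the first gene of each stood at 0.91 for Cyct, 0.85 for Pgk2, 0.76 for Pdha2, 0.71 for Gapdhs, 0.68 for Ldhc, 0.60 for Ldha, 0.60 for Gapdh and 0.47 for Cycs.

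Between the groups, Metaphase I over Pachytene, 3 of the 10 members were over 2-fold higher in the summed CPM, with 1 CPM added, and 1 was over 2-fold lower. Among the 16174 genes that reached 20 counts in the sum of both groups, 8.49% were higher and 9.81% lower by this rule. The members' median log2 ratio was 0.26, beside -0.00 over all genes, and was 0.06 with replicate 19 of Metaphase I left out and 0.20 without the 8 libraries. The 3 higher members were the somatic Ldhb, Gapdh and Cycs, each with most of its Metaphase I counts in replicate 19, and without that library 1 of the 9 members still at 20 counts was higher, Cycs, against 5.06% of all genes, and Gapdhs alone was lower, against 10.2%. Without the 8 libraries of high X-linked share 1 was higher and 0 lower, against 6.32% and 4.13%.

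The somatic forms had these values. Cycs was 9.49-fold higher (60 and 442 counts, 95% conditional binomial interval 7.23 to 12.6), 2.54-fold higher without replicate 19 (1.84 to 3.53), and 1.51-fold higher without replicates 13 and 19 (1.04 to 2.20). Gapdh was 3.72-fold higher (124 and 358 counts, 3.02 to 4.60), and its log2 ratio was -0.25 without replicate 19. Ldhb was 102-fold higher (1 and 79 counts, 17.7 to 4070), with 5 Metaphase I counts left without replicate 19. The direction of Gapdh thus rested on the library with the Sertoli markers.

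Gapdhs, the lower member, was 2.49-fold lower (330 and 103 counts, ratio 0.402, interval 0.319 to 0.503). Pachytene replicate 7 held 40.6% of its Pachytene counts, and without that library the log2 ratio was -0.69, whereas without Metaphase I replicate 3, with 43.7% of the Metaphase I counts, it was -1.83 (4.12-fold lower). Without the 8 libraries the direction turned, with 14 and 24 counts (log2 0.62). The spermatid markers move with it as given above, and their part was not tested.

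None of the 6 members whose sum reached 1000 counts was over 2-fold either way, beside 0.838% higher and 4.86% lower among all such genes. Ldhc had 308462 and 231274 counts, a ratio of 0.966 (0.961 to 0.971), and Ldha 16040 and 13385, a ratio of 1.08 (1.05 to 1.10). Pgk2 was 1.35-fold lower (log2 -0.44) and Hk1 1.53-fold lower (log2 -0.61), while Pdha2 (5574 and 5812 counts) was 1.34-fold and Cyct (7364 and 7738 counts) 1.35-fold higher. Their medians over cells were closer for Pgk2 and Hk1, at 324 and 298 CPM and at 128 and 127 CPM. Single libraries carried part of these sums: without Pachytene replicate 7 the log2 ratio of Pgk2 was -0.25 and that of Hk1 -0.30 (-0.90 without Metaphase I replicate 3), and without Metaphase I replicate 13 that of Cyct was 0.22 and that of Pdha2 0.29.

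**Figure D5:**
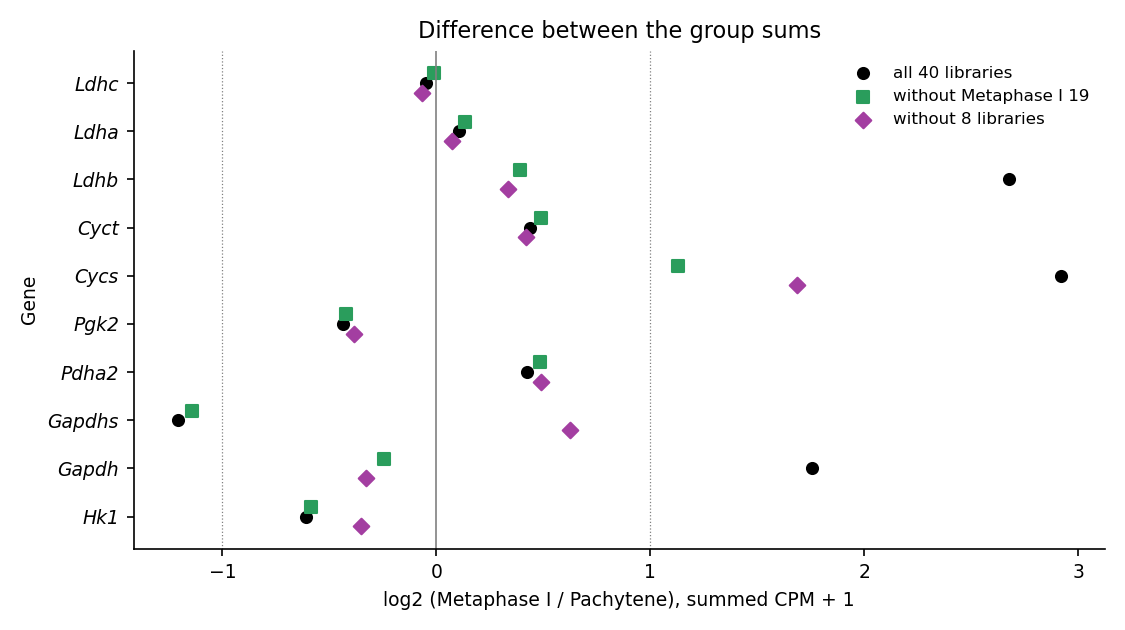
Log2 ratio of summed CPM, Metaphase I over Pachytene with 1 CPM added, for the 10 members, from all libraries (circles), with replicate 19 of Metaphase I left out (squares) and with the 8 libraries of high X-linked share left out (diamonds). Lines mark 2-fold either way. Ldhc, Ldha, Pgk2, Pdha2, Cyct and Hk1 stay within them, while Gapdh and Gapdhs change side of 0.

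Several other genes of the pathway that passed 2-fold had most of their counts in 1 library. The numbers of such genes in each list below stand beside 8.49% higher and 9.81% lower among all 16174 measured genes. The lists are short, and nothing was read from these numbers about a list. In upper glycolysis 9 of 14 genes were measured, 0 were over 2-fold higher and 2 lower, the testis aldolases Aldoart2 (2043 and 648 counts, log2 -1.27) and Aldoart1 (665 and 245 counts, log2 -1.03). Pachytene replicate 7 held 57.7% and 69.0% of their Pachytene counts, and without the 8 libraries they stood at -0.23 and -0.27. Hk3, a hexokinase, had 52 and 20 counts (log2 -0.68), and the most abundant gene, the triose phosphate isomerase Tpi1, stood at 192 and 167 CPM. The list's median was -0.45, which was -0.62 without replicate 19 and -0.23 without the 8 libraries.

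In lower glycolysis 7 of 10 genes were measured, with 2 higher and 0 lower. Pkm, pyruvate kinase, had 70 and 259 counts (log2 2.00), 79.9% of the latter in replicate 19. Its log2 ratio was 0.01 without that library and 1.12 without the 8 libraries, which take out Pachytene replicate 7 with 41.4% of its Pachytene counts as well. Pgam1, a phosphoglycerate mutase, had 8 and 40 counts (log2 1.43, and 0.71 without the 8 libraries). Eno3, an enolase, had 797 and 792 counts (log2 0.35), and the most abundant gene was Pgam2, the muscle mutase, at 1738 and 1474 CPM. The list's median was 0.06, and 0.01 and 0.22 under the same 2 omissions.

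Of the 13 transport genes 10 were measured, with 1 higher and 0 lower, and the median was -0.11. The higher was the lactate carrier Slc16a1 (27 and 171 counts, log2 2.41), with 81.3% of the latter in replicate 19 and a log2 ratio of 0.45 without it. A second carrier of the family, Slc16a7, had 3296 and 1445 counts (log2 -0.82), and Emb, a carrier partner, 222 and 143 counts. The glucose carrier Slc2a3 was the most abundant at 1142 and 1292 CPM.

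Of 12 genes of the pyruvate dehydrogenase complex and its regulators 9 were measured, with 1 higher and 1 lower. The higher was the kinase Pdk1, with 0 and 21 counts, all in replicate 19, and the lower the kinase Pdk3, with 356 and 93 counts and 61.2% of the former in Pachytene replicate 7. Pdpr, a regulator of the phosphatase, had 14 and 24 counts. Pdhb, the beta subunit that pairs with Pdha2, was the most abundant, at 184 and 263 CPM (log2 0.51). The list's median was 0.23, and 0.00 without replicate 19 and 0.01 without the 8 libraries.

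Of 18 citric acid cycle genes 17 were measured, 2 were higher and 0 lower, and the median was 0.22. Citrate synthase, Cs, had 422 and 701 counts (log2 1.07), and without the 8 libraries its log2 ratio of 0.997 was just under 2-fold. Idh2, an isocitrate dehydrogenase, had 3 and 31 counts (log2 1.48, and 1.62 without the 8 libraries). Mdh1, the cytosolic malate dehydrogenase, had 196 and 297 counts (log2 0.91), 68.7% of the latter in replicate 19, and stood at -0.57 without it. Sucla2, a succinyl-CoA ligase subunit, was the most abundant at 663 and 610 CPM.

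The list of other testis forms of energy genes also held Hk1os, the gene on the strand opposite Hk1. All 10 genes of this list were measured, with 0 higher, 2 lower (the aldolases above) and a median of -0.08. Cox8c, a testis subunit of cytochrome c oxidase, was the most abundant at 2398 and 2498 CPM, and Hk1os had 101 and 52 counts (log2 -0.49). Of 6 genes of cytochrome c maturation and the apoptosome 4 were measured, with 1 higher and 1 lower and a median of 0.26. Apaf1, to which released cytochrome c binds, had 0 and 46 counts, 89.1% of them in replicate 19. Bax, a pore protein of mitochondria, had 76 and 15 counts, 88.2% of the former in Pachytene replicate 7 and 73.3% of the latter in Metaphase I replicate 19. Cyc1, the cytochrome c1 of complex III, was the most abundant, with 757 and 862 counts (log2 0.54, and 1.04 without the 8 libraries). Of 3 other lactate dehydrogenase genes 1 was measured, Uevld, with 65 and 46 counts (log2 -0.10).

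Without the 8 libraries the genes of these lists over 2-fold were 0 in upper glycolysis, transport and the pyruvate dehydrogenase list, Pkm in lower glycolysis, Cyc1 in the cytochrome c list, and Idh2 and Suclg2 (log2 1.32) in the citric acid cycle, all higher in Metaphase I. Among all genes measured without those libraries 6.32% were higher and 4.13% lower. Suclg2, also a succinyl-CoA ligase subunit, had 29 and 40 counts over all libraries (log2 0.57). Pachytene replicate 7 held 93.1% of the former and Metaphase I replicate 19 held 35% of the latter. Both are among the 8 libraries, so its 1.32 rests on very few Pachytene counts. Suclg2 was named after its value was seen.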

How the data were processed

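Single-cell libraries followed a modified STRT-seq method with enrichment of 3′ ends, per the labels' protocols. The authors deposited whole-number counts per gene, made with UMI-tools, STAR and featureCounts on GRCm38, per the submitters' processing notes. The sources used here do not give whether reads or molecules were counted, which strand setting was used or which annotation release. Counting intervals are too narrow if reads were counted. Here CPM was computed from each column's total, and group levels from summed counts (17663240 in Pachytene, 13709617 in Metaphase I). The log2 ratio had a pseudocount of 1 CPM. A gene was measured at a summed count of 20 or more. A fold had an exact conditional binomial interval. Exon lengths and positions are those of the deposited table and of GENCODE M21. Likeness was Spearman's correlation over 40 cells among genes with 100 counts and 20 cells or more, up to the first 3 being named, and that of Hk1 is not reported here. From each pathway list the most abundant measured gene and up to 3 with the largest log2 ratios were named.

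The members, marker lists and pathway lists were chosen with earlier results of these data known. X-linked share, and the omission of libraries by it, likewise followed those results, and the omission of Metaphase I replicates 13 and 19 together was added after seeing the data. Alternatives were medians over cells, equal weight per cell, totals without mitochondrial and ribosomal protein genes, other count minimums, per-kilobase counts, TMM (edgeR 4.0.16) and median-of-ratios (DESeq2 1.42.0) scaling, a pseudocount of 10 CPM, thinning to 340000 counts, and omission of each library in turn. No 2 libraries of a group were alike within sampling noise (chi-square per degree of freedom of 3.14 or more). The log2 ratios with their 2-fold calls and the intervals of folds were tested on simulated Poisson counts, and the other steps were not. The software was Python 3.11.15, numpy 2.4.6, pandas 2.3.3, scipy 1.17.1 and R 4.3.3. No doublet caller was run.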

Additional observations from a re-analysis of the deposited data

How the results depend on the processing

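The lead of the testis form held in all cells left for Ldhc over Ldha and Ldhb, Pgk2 over Pgk1 and Pdha2 over Pdha1 under every alternative run, and for Cyct over Cycs in 18 to 19 Metaphase I cells over single omissions. Gapdhs led Gapdh in 4 Pachytene cells, 3 to 4 over single omissions, 7 of 19 after thinning to 340000 counts, and 0 of 16 without the 8 libraries of high X-linked share. In Metaphase I it led in 6 cells, 5 to 6 over single omissions and 3 without the 8 libraries. The number of members over 2-fold higher was 3, and 1 without the 8 libraries, 0 without Metaphase I replicates 13 and 19 together, and 1 to 3 over single omissions, the 1 being without replicate 19. Which members were higher also changed otherwise. With a pseudocount of 10 CPM Ldhb, at 0.0566 and 5.76 CPM, was not over 2-fold. With medians over cells Ldhb was at 0 CPM in both groups, Gapdh was lower and Gapdhs was over 2-fold higher. The number lower was 1, and 0 with medians over cells, with a pseudocount of 10 CPM, without the 8 libraries and without replicates 13 and 19, and 0 to 1 over single omissions, the 0 being without Pachytene replicate 3, 7 or 19. The log2 ratio of Gapdhs reversed to 1.01 with medians over cells and to 0.62 without the 8 libraries. That of Gapdh reversed to -0.68 with medians, -0.33 without the 8 libraries, -0.25 without replicate 19 and -0.41 without replicates 13 and 19, and ran to 1.90 over single omissions (without Pachytene replicate 20). Under every alternative run Pdha2 (log2 0.21 to 0.56) and Cyct (0.20 to 0.56) stayed higher in Metaphase I. Pgk2 (-0.58 to -0.12) and Hk1 (-0.90 to -0.02) stayed lower, but Hk1 was close to equal with medians over cells. Ldhc (-0.09 to 0.05) and Ldha (-0.03 to 0.14) lay on both sides of 0. Apart from the omissions, which leave fewer cells, the cause was not tested. TMM and median-of-ratios scaling shifted all log2 ratios by 0.016 and 0.019.

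No paired analysis was possible because each group is 1 sample and its comparison comes from no test, and the replicate numbers name cells only. Depth limits the low members most: Ldhb, Gapdhs, Gapdh and Cycs had medians of 0 to 6.58 CPM, so a cell at 0 is not shown to lack the transcript.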

Other observations

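Metaphase I replicate 18 was low in some of the abundant members and not in others. It had 5453 CPM of Ldhc, 330 CPM of Ldha and 11.9 CPM of Hk1, each the lowest of the 40 cells. It had 86.3 CPM of Pgk2 and 184 CPM of Cyct, near the low end of its group, and 306 CPM of Pdha2, close to the median of 324 CPM, beside the highest sum of spermatocyte markers of any cell, 8345 CPM. The single omissions include it.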
